A study of Mus musculus with 3 samples.

Results

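NR2F2 ChIP-seq peaks were examined around 9 genes that build the early gonad, Nr5a1, Nr0b1, Wt1, Lhx9, Lhx2, Emx2, Cbx2, Six4 and Gata4. A peak was taken when its nearest curated RefSeq transcription start site (TSS) belonged to one of the 9 genes or when it lay within 100 kb of a TSS of one of them. This rule took 8 of the 10069 peaks, and 6 of the 9 genes had at least 1 peak. Chromatin came from whole testes of outbred CD-1 mouse embryos at E14.5 (the embryonic day), dissected away from the mesonephros. The NR2F2 group held 2 ChIP libraries from separate experiments, each made from 18 µg of sheared chromatin of 30 pooled testes with an antibody against NR2F2 (also called COUP-TFII), and the control group held 1 library of input chromatin, and the labels name no mutant and no treatment. Because whole testes were used, a peak cannot be assigned to one cell type, and binding in fewer cells cannot be told apart from weaker binding in each cell. No RNA was measured in these libraries, so the labelled tissue could not be checked against marker genes.

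The gonad first forms as a ridge of cells on the mesonephros that can become either a testis or an ovary. Nr5a1 encodes SF-1, the nuclear receptor that drives formation of the gonad and the adrenal gland and later switches on steroidogenic enzymes in Leydig cells. The other 8 genes are known regulators of that ridge, and several of them act on Nr5a1 itself. NR2F2 is a nuclear receptor of the interstitial cells of the fetal testis that binds DNA at repeats of the hexamer AGGTCA and its close form GGGTCA.

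Sequences are printed for the 3 peaks whose nearest TSS belonged to one of the 9 genes and, chosen after the counts were seen, for the far upstream Gata4 peak. They are RefSeq reference sequence of the GRCm38 (mm10) plus strand, from the C57BL/6J strain and not from the CD-1 animals, and capitals mark AGGTCA or GGGTCA on either strand (TGACCT or TGACCC where the match is on the minus strand). The Gata4 promoter peak is printed for chr14:63245522-63245722 and the Nr0b1 peak for chrX:86191528-86191774, the bases before the Nr0b1 TSS, and the other 2 are printed whole.
Nr5a1, chr2:38719416-38719715: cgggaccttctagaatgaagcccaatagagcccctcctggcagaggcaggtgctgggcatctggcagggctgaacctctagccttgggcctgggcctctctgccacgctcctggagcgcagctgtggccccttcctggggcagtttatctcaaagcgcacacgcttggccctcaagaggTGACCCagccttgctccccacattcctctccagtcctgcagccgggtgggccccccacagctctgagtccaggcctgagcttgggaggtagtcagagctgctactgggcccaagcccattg
Gata4 promoter, chr14:63245522-63245722: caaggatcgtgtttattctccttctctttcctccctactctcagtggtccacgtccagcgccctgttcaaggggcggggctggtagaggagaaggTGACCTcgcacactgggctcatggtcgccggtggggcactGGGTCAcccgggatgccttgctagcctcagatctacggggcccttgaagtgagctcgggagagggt
Gata4 far upstream, chr14:63322060-63322359: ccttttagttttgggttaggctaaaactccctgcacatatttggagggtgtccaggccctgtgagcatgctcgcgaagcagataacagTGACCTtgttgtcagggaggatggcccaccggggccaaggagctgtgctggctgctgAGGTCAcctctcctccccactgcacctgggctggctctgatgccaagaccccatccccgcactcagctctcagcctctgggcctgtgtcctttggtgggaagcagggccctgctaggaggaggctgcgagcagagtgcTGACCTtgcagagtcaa
Nr0b1, chrX:86191528-86191774: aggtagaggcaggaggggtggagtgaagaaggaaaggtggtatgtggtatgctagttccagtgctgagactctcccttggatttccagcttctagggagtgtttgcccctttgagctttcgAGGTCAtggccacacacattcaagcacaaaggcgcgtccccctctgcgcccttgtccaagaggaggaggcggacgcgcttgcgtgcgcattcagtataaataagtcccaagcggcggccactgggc

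Each library was given as the number of reads in every 300 bp peak. Reads at peaks summed to 73251 in the input, 426784 in ChIP replicate 1 and 364261 in ChIP replicate 2, with medians of 7, 37 and 31 reads per peak. The depth of the whole libraries is not known, so a ratio of ChIP to input count is not a depth-corrected fold enrichment. The authors called the peaks on the merged ChIP reads, which means that a high ChIP count was a condition of being listed. The lowest sum of the 2 ChIP libraries at any peak was 24. Intervals printed here are exact 95% intervals of the ratio of 2 counts (Clopper-Pearson) and cover counting error only. Means and SDs of ChIP counts are of raw counts, so each SD includes the difference in total reads between the 2 ChIP libraries.

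The 8 peaks lay upstream of, at, or past the ends of the genes, and the peak at the Nr0b1 TSS was the one that touched a gene span of the 9. Only Nr5a1, Nr0b1 and Gata4 owned the TSS nearest to a peak, with 1 peak each. The other 5 peaks lay nearer to another gene, among them Them7 for Wt1, Dennd1a for Lhx2, and Fdft1 and Gm46458 for Gata4. Distance to a TSS does not say which gene a bound region acts on.

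**Figure D1:**
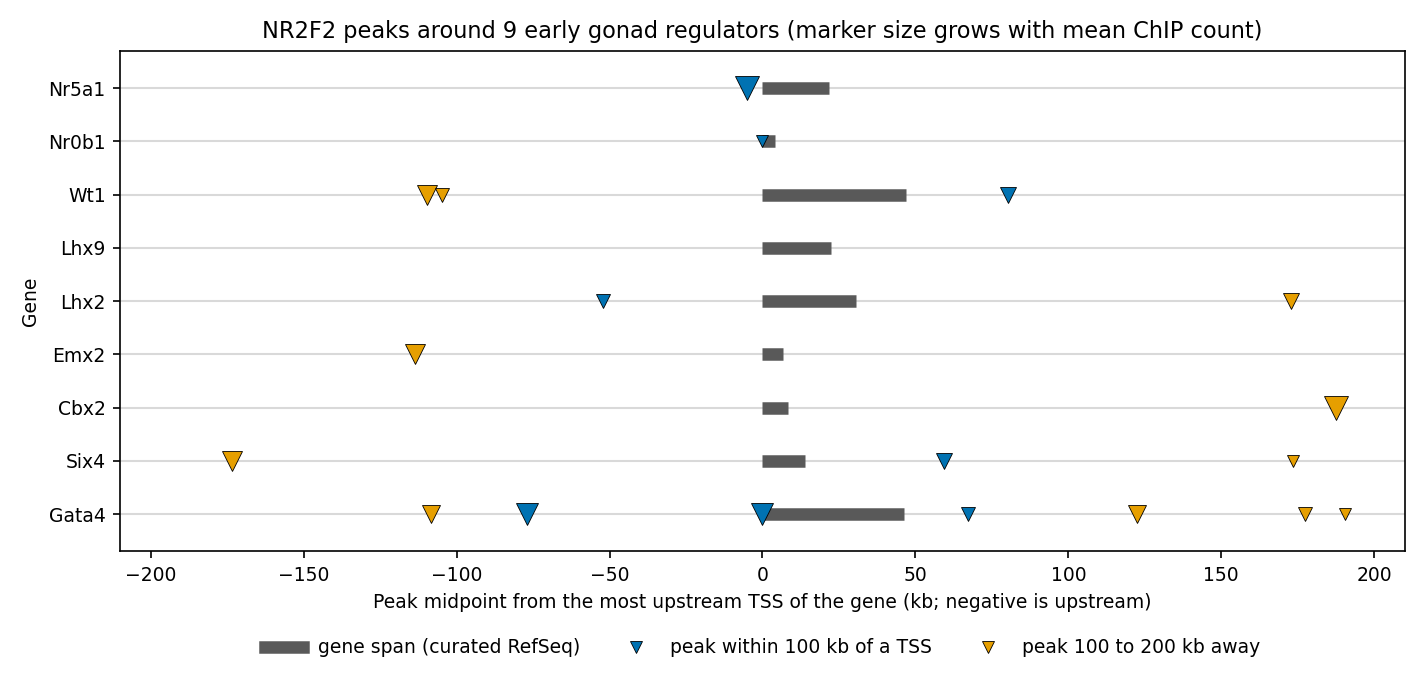
Peak midpoints (triangles) around the 9 genes in kb from the most upstream TSS of each gene, with the gene span as a grey bar and marker size growing with the mean ChIP count. Blue marks the 8 peaks of the set, orange the 11 peaks 100 to 200 kb away, and Lhx9 has neither.

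Among the nuclear receptor genes, Nr5a1 had 1 peak, upstream of its promoter, with a high ChIP count. The gene (RefSeq GeneID 26423) spans chr2:38692656-38714542 on the minus strand, and the peak chr2:38719416-38719715 lay 4874 bp upstream of its TSS, outside any curated gene. The input library had 11 reads there, ChIP replicate 1 had 75 and ChIP replicate 2 had 66. Both ChIP counts stood well above the input and close to each other, and their mean of 70.5 ± 6.36 (SD, n = 2) exceeded that of 92.4% of all peaks. The input count was itself the highest of the 8. The ratio of ChIP to input count was 6.82 (95% interval 3.60 to 14.2) in replicate 1 and 6.0 (3.15 to 12.6) in replicate 2.

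Nr0b1 had the lowest ChIP counts of the set, though not the lowest ratio to input. It encodes DAX1, a nuclear receptor without a typical DNA-binding domain that represses transcription by NR5A1. The gene (11614) spans chrX:86191775-86195947 on the plus strand, and the peak chrX:86191528-86191827 overlapped its single TSS. The counts were 4 in the input, 20 in ChIP replicate 1 and 16 in ChIP replicate 2. Both ChIP counts lay above the input, but the mean of 18.0 ± 2.83 (SD, n = 2) exceeded that of only 7.80% of all peaks. The ratio was 5.00 (1.67 to 20.1) in replicate 1 and 4.0 (1.29 to 16.4) in replicate 2, so its size was poorly determined at this depth.

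Gata4 was the one gene of the 9 with more than 1 peak, and 2 of its 3 peaks were among the 3 with the highest ChIP counts of the set. It encodes a zinc-finger factor needed for the gonadal ridge to form and for Nr5a1 expression there. The gene (14463) spans chr14:63198914-63245271 on the minus strand. At its promoter, the peak chr14:63245423-63245722 lay 152 bp upstream of the TSS and held 8 input reads, 76 reads in ChIP replicate 1 and 62 in ChIP replicate 2. The ratio was 9.5 (4.58 to 22.8) in replicate 1 and 7.75 (3.70 to 18.7) in replicate 2, with a mean ChIP count of 69 ± 9.90 (SD, n = 2) that exceeded 91.8% of all peaks.

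The far upstream Gata4 peak had ChIP counts close to those of the promoter peak. It lay at chr14:63322060-63322359, 76789 bp upstream of Gata4 and outside any curated gene, and its nearest TSS was that of the predicted gene Gm46458, 46236 bp away. The input had 6 reads, ChIP replicate 1 had 74 and ChIP replicate 2 had 65. The ratio was 12.3 (5.41 to 34.7) in replicate 1 and 10.8 (4.72 to 30.6) in replicate 2. These intervals overlapped those of the promoter peak widely.

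The remaining Gata4 peak lay at the promoter of another gene. It lay at chr14:63178007-63178306, 120 bp upstream of the nearest TSS of Fdft1, which encodes squalene synthase of the cholesterol pathway, with its midpoint in a 5′ UTR of that gene, and 66965 bp downstream of the Gata4 TSS. Counts were 8 in the input, 34 in ChIP replicate 1 and 26 in ChIP replicate 2. The ratios of 4.25 (1.93 to 10.6) and 3.25 (1.43 to 8.31) were the lowest in each replicate among the 8 peaks. The Nr5a1 peak and the other 2 Gata4 peaks held 62 or more raw reads in both ChIP libraries, and the remaining 5 peaks 46 or fewer. They were grouped by these counts, so the gap is a description and not a test. Their mean ChIP counts exceeded those of 91.8% to 92.4% of all peaks. Relative to input the order differed, with higher ratios at the Six4 and Wt1 peaks than at the Nr5a1 peak in both replicates.

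Wt1 had 1 peak, well past its 3′ end. It encodes a zinc-finger factor that, with LHX9, is known to activate Nr5a1 in the gonadal ridge. The gene (22431) spans chr2:105126529-105173614 on the plus strand, and the peak chr2:105206729-105207028 lay 80200 bp downstream of the nearest Wt1 TSS and 33115 bp beyond the gene. The TSS of Them7 was nearer, at 17314 bp. The counts were 4 in the input, 46 in ChIP replicate 1 and 32 in ChIP replicate 2, and both ChIP counts were above the median of all peaks in their library. The ratio was 11.5 (4.2 to 44.0) in replicate 1 and 8.0 (2.84 to 31.1) in replicate 2.

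Of the 4 homeobox genes, Lhx2 and Six4 had 1 peak each and Lhx9 and Emx2 had none. Lhx9, Lhx2 and Emx2 encode homeodomain factors of the gonadal surface cells or the ridge, and Six4 encodes a SIX-family homeodomain factor that acts upstream of Nr5a1. The Lhx2 gene (16870) spans chr2:38339281-38369737, and its peak chr2:38286837-38287136 lay 52145 bp upstream, in an intron of Dennd1a, 248 bp past that gene's TSS. The counts were 7 in the input, 40 in ChIP replicate 1 and 23 in ChIP replicate 2, the widest spread between the ChIP libraries in the set, with a mean of 31.5 ± 12.0 (SD, n = 2). The ratio was 5.71 (2.53 to 15.1) in replicate 1 and 3.29 (1.36 to 9.07) in replicate 2.

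The Six4 peak lay past the 3′ end of the gene. Six4 (20474) spans chr12:73099609-73113425 on the minus strand, and the peak chr12:73053828-73054127 lay 59118 bp downstream of its TSS and 45482 bp past the gene. The input had 3 reads, ChIP replicate 1 had 44 and ChIP replicate 2 had 35. The ratios of 14.7 (4.70 to 73.8) and 11.7 (3.68 to 59.3) were the highest of the 8 peaks, and the low input count made both uncertain.

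Lhx9, Emx2 and Cbx2 had no peak by the rule. Lhx9 (16876), whose loss in mice leaves the gonad unformed, spans chr1:138825186-138847579, and its nearest peak lay 341888 bp downstream near Nek7, with 5 input reads and 27 and 37 ChIP reads. Emx2 (13797), also required for the gonad and the urogenital tract, spans chr19:59458690-59465357, and its nearest peak lay 113488 bp upstream in Pdzd8, with 18 input reads and 58 and 52 ChIP reads. Cbx2 (12416), a Polycomb protein whose loss in males causes sex reversal, spans chr11:119023021-119031275, and its nearest peak lay 187391 bp downstream in Tbc1d16, with 11 input reads and 65 and 77 ChIP reads. A gene without a peak is one at which none was called at this depth, and reads outside the called peaks were not analysed here.

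**Figure D2:**
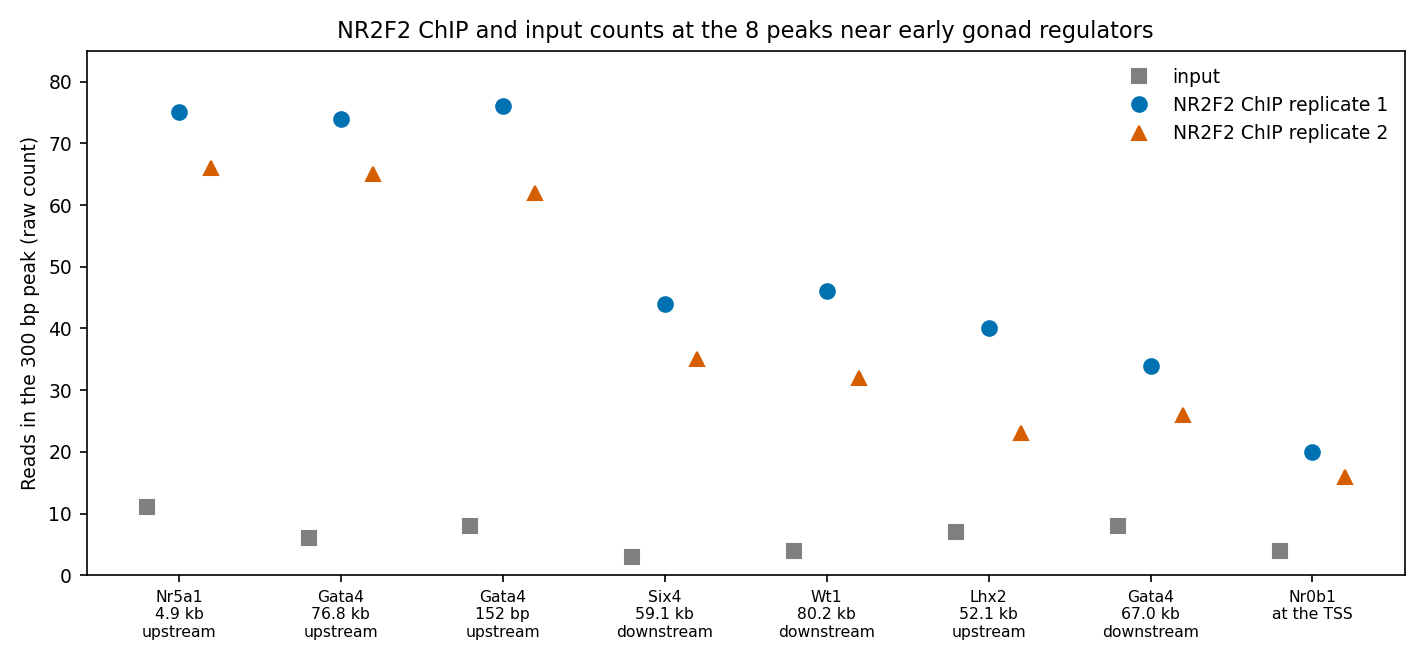
Read counts (linear axis) of the input (squares), ChIP replicate 1 (circles) and ChIP replicate 2 (triangles) at the 8 peaks, ordered by mean ChIP count. Both ChIP counts lie above the input at every peak shown, as at 10059 of all 10069 peaks. The Nr5a1 peak and the promoter and far upstream Gata4 peaks hold 62 to 76 ChIP reads.

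A peak was about as common around the 9 genes as around other genes. By the same rule, 69.5% of 26178 curated genes had a peak, against 6 of 9 (66.7%) here, and 30.8% of all genes owned the nearest TSS of a peak, against 3 of 9 (33.3%). At least 3 peaks, the number at Gata4, were counted at 26.4% of all genes. The median distance from a TSS to the nearest peak was 59118 bp for the 9 genes and 39016 bp for all genes. Of all genes, 27.9% lay nearer to a peak than Nr5a1 did, 17.2% nearer than Gata4 and 87.9% nearer than Lhx9. Genes of 1 locus share peaks, so these shares are given with no test.

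**Figure D3:**
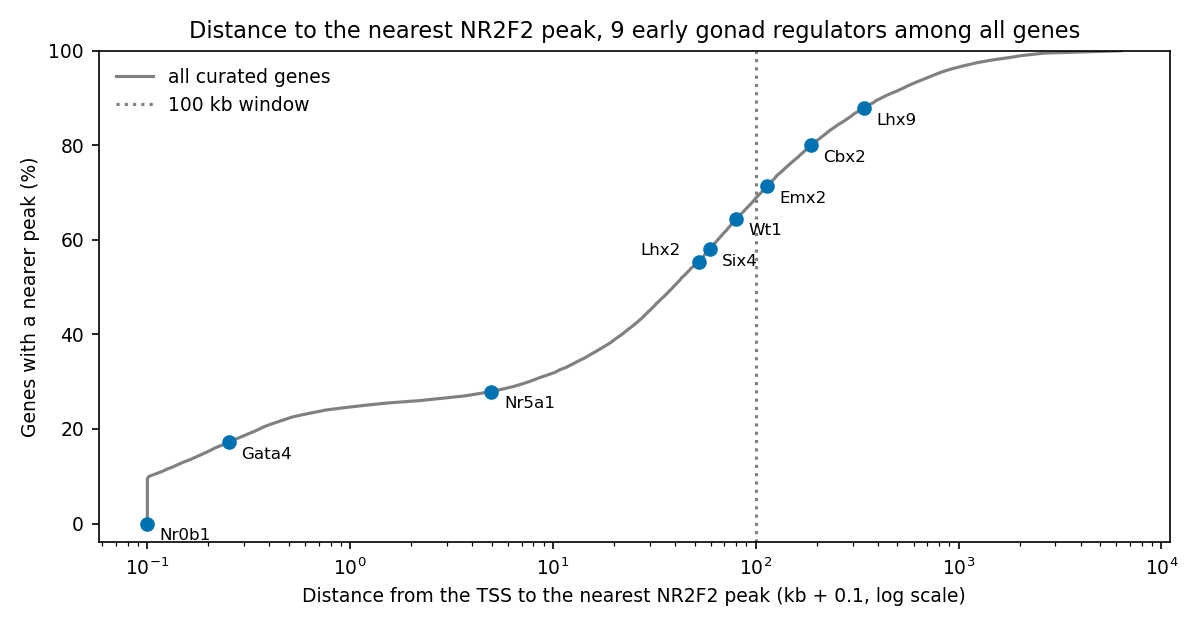
Percentage of curated genes with a nearer peak (vertical axis) against the distance from the TSS to the nearest peak in kb plus 0.1 (log axis), with the 9 genes as points on the curve of all genes. Nr0b1, Gata4 and Nr5a1 lie at short distances, and Emx2, Cbx2 and Lhx9 lie beyond the dotted 100 kb line.

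To ask whether the peaks stood above the input, counts were compared over all 10069 peaks by edgeR's quasi-likelihood test, with ChIP and input taken as equally deep. All 8 peaks passed at a Benjamini-Hochberg adjusted p under 0.05, as did 97.8% of all peaks, so the count says little about these 8. DESeq2 called 6 of the 8 (not those at Nr0b1 and Fdft1), and 61.9% of all peaks. In edgeR the log2 ratio was 2.66 ± 0.39 (SE) at the Nr5a1 peak, with an adjusted p of 8.52e-11, which became 0.00479 in DESeq2 and 0.0311 with the ChIP libraries unscaled. Replicate spread behind these p-values came from the 2 ChIP libraries only, since the 1 input has none. The main edgeR fit pooled that spread over all peaks. At peaks listed for their ChIP signal, these p-values are no independent evidence of binding. The log2 ratio was 3.08 ± 0.42 at the Gata4 promoter (edgeR adjusted p = 3.77e-12, at most 0.0311 over 5 alternatives) and 2.13 ± 0.70 at the Nr0b1 TSS (edgeR adjusted p = 0.00276, at most 0.161). Over the 8 peaks it ran from 1.88 at the Fdft1 promoter to 3.66 at the Six4 peak, with a median of 2.87 beside 2.31 for all peaks. Taking the ChIP libraries as 2 times deeper than the input left 5 of the 8 past the threshold and lost Nr0b1, Lhx2 and the Fdft1 promoter.

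To set each peak against the typical peak, whatever the depth, the ratio was scaled by TMM factors at peaks. No peak of the 8 differed from the typical peak by edgeR's quasi-likelihood test at an adjusted p under 0.05, while 1.53% of all peaks lay above it and 0.0497% below it. At an unadjusted p under 0.05 edgeR took 10.4% of all peaks and 1 of the 8, the far upstream Gata4 peak, with a log2 ratio of 1.21 ± 0.55 (SE) above the typical peak (edgeR adjusted p = 0.382). DESeq2 took none of the 8 at an adjusted p (0.218% of all peaks) or an unadjusted p (2.11% of all peaks) under 0.05, and gave an adjusted p at 1 of the 8 only. The Nr5a1 peak had a log2 ratio of 0.36 ± 0.46 (edgeR adjusted p = 0.897), higher than at 68.1% of all peaks, although its ChIP count exceeded that of 92.4%. The Gata4 promoter had 0.79 ± 0.51 (edgeR adjusted p = 0.655) and the Nr0b1 peak had −0.15 ± 0.83 (edgeR adjusted p = 0.982). The Six4 peak had the highest value, 1.39 ± 0.74 (edgeR adjusted p = 0.524), and the Fdft1 promoter the lowest, −0.41 ± 0.58 (edgeR adjusted p = 0.905). Of the 8 values 5 were above 0 and 3 below, with a median of 0.57 beside 0.02 for all peaks, and with 3 to 11 input reads per peak the standard errors ran from 0.46 to 0.83.

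No difference between the ChIP libraries was called at these peaks. Replicate 1 had the higher count at all 8, as at 6975 of all 10069 peaks, and it had more reads at peaks in total. An exact two-sided binomial test against the share of the totals called none of the 8 after Benjamini-Hochberg adjustment (0.0993% of all peaks) and none at an unadjusted p under 0.05 (8.83% of all peaks). The lowest adjusted p of this exact test was 0.710, at the Lhx2 peak.

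By position, 3 of the 8 peaks were TSS proximal (within 1000 bp upstream of a TSS or overlapping it), 2 lay up to 10000 bp upstream, 1 in a gene body and 2 between genes. In all peaks the same classes held 36.0%, 4.34%, 33.9% and 25.8%. GC content ran from 55.3% at the Wt1 peak to 72.7% at the Lhx2 peak in the Dennd1a intron, with a median of 61.2% beside 60.7% for all peaks. The Nr5a1, far upstream Gata4 and Wt1 peaks were poor in CpG, with 6, 5 and 5 CpG dinucleotides, while the Gata4 promoter had 20 and the Six4 peak 23, beside a median of 18 for all peaks.

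The hexamers in capitals in the printed sequences were found in 6 of the 8 peaks, AGGTCA in 4 and GGGTCA in 3. Of all 10064 peaks on chromosomes, 37.7% held AGGTCA, 32.4% held GGGTCA and 58.9% held either, with both strands searched and each peak read over its 300 bases. The Nr5a1 peak had 1 match, GGGTCA on the minus strand 32 bp from the peak midpoint. The Gata4 promoter had 1 AGGTCA at 47 bp and 1 GGGTCA at 87 bp from the midpoint, and the far upstream Gata4 peak had 3 AGGTCA matches, of which 1 lay 2 bp from the midpoint. A match within 50 bp of the midpoint was found in 5 of the 8 peaks and in 34.0% of all peaks. The peaks in the Dennd1a intron and at the Fdft1 promoter held neither hexamer in this window.

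Longer forms were scarcer. Neither AGAGGTCA nor AGGGGTCA, forms with 2 bases before the hexamer they contain, was found in the 8 peaks, beside 6.63% and 4.30% of all peaks. The forms TCAAGGTCA and CCAAGGTCA, bound by NR5A1 and also containing AGGTCA, were in none of the 8 and in 2.63% and 2.42% of all peaks. The GATA-type sequence AGATAA was in 3 of the 8, those of Nr5a1 (3 bp from the midpoint), Wt1 and the far upstream Gata4 region, and in 7.08% of all peaks, while TGATAA was in none of the 8 and in 5.03%. Only exact matches were counted, so close variants of these forms were not found by the search. These motifs were chosen with the data known, 8 peaks are few, and a match is not a measured binding site.

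Part of a list of other early gonad genes is described beside these 9, namely Cited2, Gadd45g, Gata6, Igf1r, Insr, Kdm3a, Map3k4, Osr1, Tcf21 and Zfpm2, and the values that follow are over these 10 genes and not over the whole list. By the same rule 9 of the 10 had a peak, beside 69.5% of all genes, with 18 peaks in all, and Insr, an insulin receptor gene with its nearest peak 113447 bp away, had none. The nearest TSS of a peak belonged to 8 of the 10, beside 30.8% of all genes, and the median distance to the nearest peak was 863.5 bp, beside 39016 bp for all genes, given with no test. Tcf21, a bHLH factor of the gonadal mesenchyme, had 6 peaks, and Cited2, a coactivator that raises Nr5a1 with WT1, had 3. All 18 peaks stood above input by edgeR at an adjusted p under 0.05, beside 97.8% of all peaks, and 13 of the 18 by DESeq2, beside 61.9% of all peaks, so these calls too say little about the genes. None differed from the typical peak by edgeR at an adjusted p under 0.05 or by DESeq2, which gave an adjusted p at 1 of the 18.

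At an unadjusted p under 0.05 edgeR took 10.4% of all peaks and 1 of the 18, the TSS peak of Map3k4, a kinase needed for Sry expression, at chr17:12318496-12318795. It had 3 input reads and 55 and 45 ChIP reads, with a log2 ratio of 1.73 ± 0.72 above the typical peak (edgeR adjusted p = 0.297). The median log2 ratio relative to the typical peak was 0.13 over the 18 peaks and 0.57 over the 8 around the 9 genes. The ranges overlapped, from −0.86 to 1.89 and from −0.41 to 1.39.

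**Figure D4:**
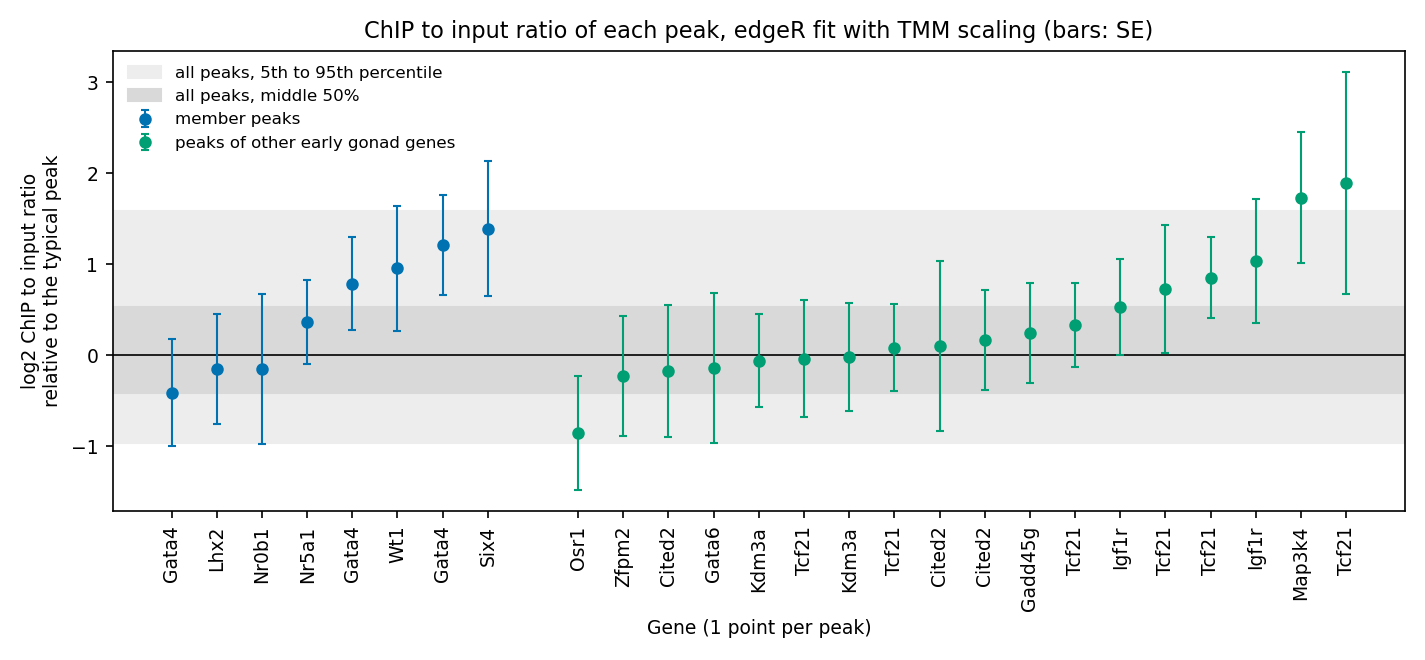
Log2 ChIP to input ratio relative to the typical peak (edgeR, TMM scaling; bars are standard errors) at the 8 peaks around the 9 genes (blue) and the 18 peaks of the other early gonad genes (green), 1 point per peak. Shading gives the middle 50% and the 5th to 95th percentile of all 10069 peaks, and the highest point, a Tcf21 peak with 1 input read, reaches 1.89.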

How the data were processed

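NR2F2 ChIP-seq was measured in 2 ChIP libraries and 1 input library of E14.5 mouse testis, sequenced as single-end reads of 75 bases. The authors deposited raw read counts at 10069 peaks of 300 bp, 1 value per peak and library. Per their methods and processing notes, reads were trimmed (Trim Galore 0.6.7), aligned to mm10 (Bowtie2), kept at a MAPQ of at least 5 and cleared of duplicates (Picard 1.110). Peaks were called on the merged ChIP libraries (HOMER 4.11.1) and set to 1 width. The sources used here do not say how reads were assigned to peaks.

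Peak distances ran from the nearer edge to curated RefSeq TSSs of GRCm38, the assembly of mm10 (26178 genes on 1 chromosome each). The 9 genes, the lists and the motifs were chosen with earlier results of these data known. Named genes were all genes of both lists, and the genes with the TSS nearest to a peak of the 9. Counts were tested over all peaks in edgeR 4.0.16 (quasi-likelihood, R 4.3.3) with Benjamini-Hochberg adjustment and a threshold of 0.05. For ChIP against input, the ChIP libraries were scaled to each other by their totals at peaks and the input was left unscaled. For the typical peak, TMM factors were used. P-values rest on 2 ChIP libraries and 1 input, and the input has no replicate. Statistics were tested on simulated data. Alternatives included DESeq2 1.42.0, other depths, windows and annotations, and each ChIP library left out. Python 3.11.15 with scipy 1.17.1 gave the exact tests. No column of the files was left out. Some genes of the second list are not reported here.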

Additional observations from a re-analysis of the deposited data

How the results depend on the processing

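The number of peaks taken for the 9 genes followed the window: 3 with 50 kb and 19 with 200 kb, against 8 with 100 kb. It was 8 by peak midpoint and 9 with all RefSeq transcripts. The 8 calls above input became 5 with ChIP taken as 2 times deeper, 7 with the ChIP libraries unscaled, 6 with DESeq2 and 1 with at least 10 input reads required, since only the Nr5a1 peak then entered the test. Over all 10069 peaks the calls above input were 9846, against 5662 with ChIP 2 times deeper, 10068 with ChIP 2 times shallower, 8122 unscaled and 6230 with DESeq2. With at least 10 input reads they were 2348 of only 2427 peaks tested. Calls above and below the typical peak were 154 and 5, against 39 and 0 with DESeq2 size factors, 102 and 7 with totals only, 22 and 0 in DESeq2 (699 peaks with an adjusted p), and 58 and 4 of those 2427 with at least 10 input reads. None of the 8 peaks was called in any of these, though DESeq2 gave an adjusted p at 1 of them only and the input minimum kept only the Nr5a1 peak. Leaving out each ChIP library in turn gave values without a test: the median log2 ratio over the 8 peaks was 2.87 to 2.88 over input and 0.57 to 0.58 relative to the typical peak. At the Lhx2 peak the value relative to the typical peak was −0.48 without NR2F2 ChIP replicate 1 and changed sign to 0.085 without replicate 2, and the cause was not tested. No paired analysis was possible because the input label carries no replicate number. The 1 input library, with 3 to 11 reads at the 8 peaks, limits every ratio.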
